A study of Homo sapiens with 14 samples.

Results

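Mitochondrial ribosomal proteins are encoded by nuclear genes named MRPL or MRPS with a number, for the large and the small subunit of the mitochondrial ribosome. The rule took every gene of the platform annotation with such a symbol and read each through 1 probe set, the one with the highest mean over the 14 arrays among those annotated to that gene alone. It found 77 genes of the 19775 that have such a probe set. Of these, 75 encode proteins and all 75 were among the 10349 genes tested, 50 for large subunit proteins and 25 for small subunit proteins. The other 2 are noncoding. MRPL20-AS1, an antisense transcript, was tested, and MRPL45P2, a pseudogene, stayed near the floor of the arrays at a mean of 2.45 (log2) and was not tested. The text below is on the 75 protein-coding genes unless another set is named.

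The mitochondrial ribosome translates the few messages that mitochondrial DNA encodes, all for subunits of the respiratory chain and of ATP synthase. Its rRNAs come from mitochondrial DNA, while all of its proteins are made in the cytosol and imported, so its assembly draws on both genomes. Some of the proteins descend from bacterial ribosomal proteins and others are found only in mitochondrial ribosomes. By textbook relationships, 45 of the 75 were classed as having a bacterial relative and 30 as mitochondria-specific. MRPS18A and MRPS30 are named for the small subunit and sit in the large one, where they were counted.

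The study measured RNA on Affymetrix arrays in HEK293 cells, a human embryonic kidney cell line, after stable transfection and selection with G418, a drug that kills cells lacking the plasmid's resistance gene. The HOXD9 lines carried an HA-tagged HOXD9 vector and comprised a mixed population (the mix) and 3 clones, a to c, each picked from that mix, against 3 arrays of cells with the HA vector. The HOXD13 lines carried a V5-tagged HOXD13 vector and comprised a mix and clones a to c of the same origin, against 3 arrays of cells with the V5 vector. HOXD9 and HOXD13 are homeodomain transcription factors that pattern limbs and the urogenital tract. Each clone descends from 1 cell, the 4 lines of a factor share a parent population, and the promoter that drives each transgene is not given in the sources used here. The vector arrays are called biological replicates, but nothing says that they came from separate cultures. All p-values therefore refer to the spread among these samples alone, part of which may be technical.

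Expression values are log2 GCRMA values, and a difference of 1 is a 2-fold change. The arrays of the HA tag and of the V5 tag were normalized as separate sets, so a HOX line was set only against the vector arrays of its own tag. On 1 HOXD9 probe set, the HOXD9 lines stood at 6.65 to 7.76 and the HA vectors at 2.52 to 2.83. Another HOXD9 probe set differed little, with the HOXD9 lines at 4.33 to 4.54 and the HA vectors at 4.20 to 4.24. On the brightest HOXD13 probe set, the HOXD13 lines stood at 12.24 to 12.59 and the V5 vectors at 6.84 to 7.01. Of the HEK293 markers, NEFL, INA and VIM were high enough to be tested, while NEFM and LHX1 were near the floor. PAX2, another marker of that list, was not tested. Of 7 fibroblast markers 1 was tested, COL1A1, and no blood or squamous epithelial marker was. The vector arrays differed little among themselves. Over the members, the median SD was 0.18 in the HOXD9 lines against 0.04 in the HA vectors, and 0.32 in the HOXD13 lines against 0.03 in the V5 vectors. In bulk RNA, fewer cells of a kind and less RNA per cell cannot be told apart.

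Most mitochondrial ribosomal protein transcripts stood slightly higher in the HOXD9 lines than in the HA vectors, and none of the single differences passed the test. The median difference over the 75 members was 0.26 (log2), against 0.08 over all genes tested. It was 0.12, against 0.04 over all genes, in a fit with an ACTB covariate. The covariate was the log2 difference between the 3' and 5' control probe sets of ACTB, a sign of RNA integrity and labelling. Without the covariate the fitted difference was above 0 for 62 members, or 82.7%, against 58.7% of all genes. All 4 HOXD9 lines lay above all 3 HA vectors for 43 members, or 57.3%, against 22.4% of all genes, and below all of them for 3 members, or 4%, against 14.1%. Both together are 46 members, or 61.3% against 36.6%. By limma with Benjamini-Hochberg adjustment over all genes, 0 of the 75 members had an adjusted p under 0.05, beside 0.00966% of all genes, which is 1 gene. At an unadjusted p under 0.05 there were 12 members, or 16% of members against 23.5% of all genes. Of these, 11 were higher (14.7% against 13%) and 1 was lower (1.33% against 10.5%). When HOXD13 clone c, which shares the estimate of the spread, was left out, 20 members passed in limma, all higher, beside 10.6% of all genes, and without HOXD9 clone b 3 passed, beside 8.5%.

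The same lean was seen in each HOXD9 line taken alone, with the highest medians in clones a and c. The median member stood above the HA vector mean by 0.19 for the mix, by 0.33 for clone a, by 0.10 for clone b and by 0.40 for clone c. The ACTB 3' to 5' difference was 2.26, 1.70, 2.35 and 2.10 in the same 4 lines, against 2.29 to 2.37 in the HA vectors, so clones a and c were also the lowest on it; its part in the lean was not tested. Over all genes the medians of the 4 lines were 0.04, 0.11, 0.00 and 0.20. Over all genes up to 18363 bases in genomic length they were 0.15, 0.24, 0.07 and 0.44. Over the 56 members of that length they were 0.22, 0.42, 0.14 and 0.47, so clone c was close to all genes of that length. Members above every HA vector array numbered 58 in the mix, or 77.3% against 48.4% of all genes, and 61 in clone a, or 81.3% against 55%. They numbered 50 in clone b, or 66.7% against 38.9%, and 58 in clone c, or 77.3% against 58.3%. Below every HA vector array lay 10 members in the mix (13.3% against 35.2%), 11 in clone a (14.7% against 36.9%), 13 in clone b (17.3% against 37.8%) and 17 in clone c (22.7% against 37.5%). Both subunits took part in it, with a median difference of 0.28 for the large subunit and 0.20 for the small. Of the 43 members with all HOXD9 lines above, 30 belong to the large subunit and 13 to the small.

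**Figure D1:**
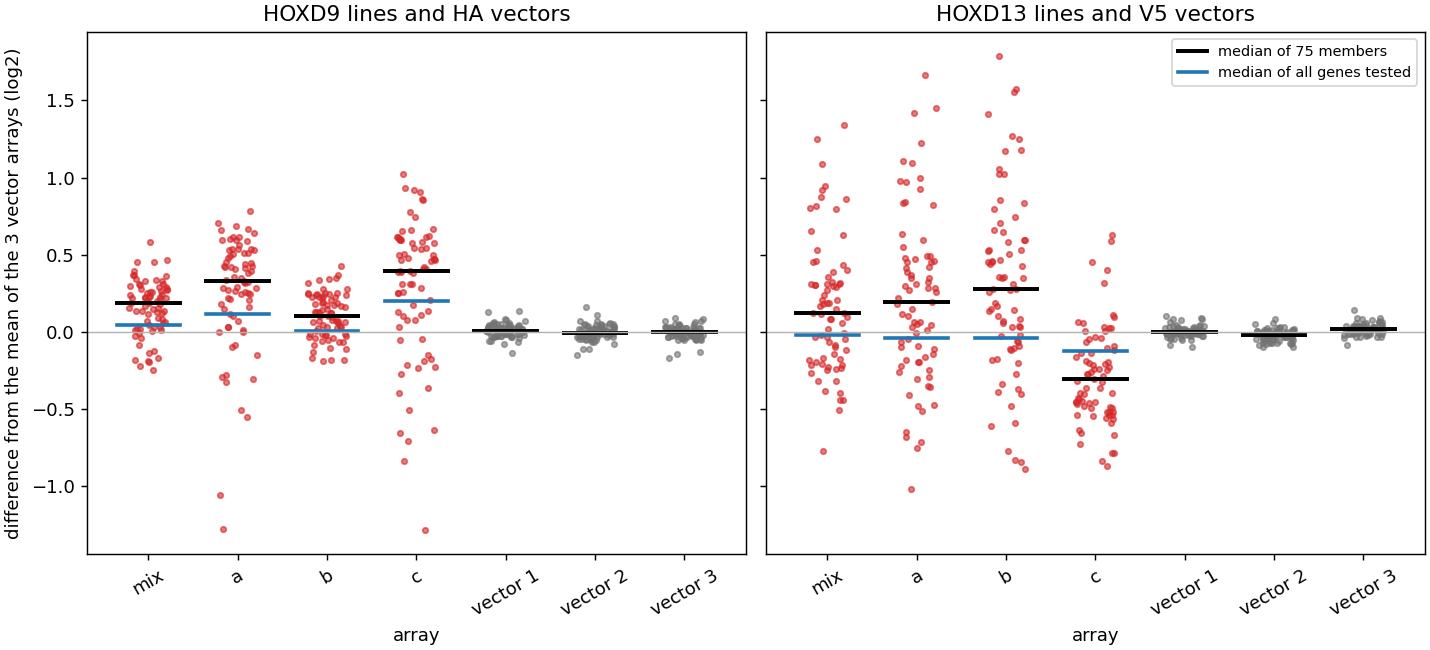
Log2 difference of each of the 75 members from the mean of the vector arrays of its own tag, on each array, with the members' median in black and, for the HOX lines, the median over all genes tested in blue. The members' medians lie at 0.19, 0.33, 0.10 and 0.40 in the HOXD9 mix and clones a to c, and at 0.12, 0.20, 0.28 and -0.31 in the HOXD13 mix and clones a to c.

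The largest positive differences with HOXD9 were in the large subunit. MRPL4, whose bacterial relative lines the tunnel through which the nascent chain leaves, read 9.31, 9.62, 9.07 and 9.86 in the HOXD9 mix and in clones a to c, against 8.87, 8.85 and 8.79 in the HA vectors. All 4 lines were above all 3 vectors, and clone b was nearest to them. The difference was 0.62 (SE 0.23) and missed the threshold in limma (adjusted p = 0.162). MRPL28 read 8.87, 9.12, 8.60 and 9.32 in the HOXD9 lines, against 8.36, 8.45 and 8.45 in the HA vectors, with the lines in the same order (difference 0.56, limma adjusted p = 0.147). MRPL11, relative of a bacterial protein at the base of the stalk that recruits translation factors, read 9.62, 9.87, 9.56 and 9.88 in the HOXD9 lines, against 9.25, 9.19 and 9.24 in the HA vectors. Its lines were again all above the vectors and closer to each other than those of MRPL4 (difference 0.51, SE 0.12, limma adjusted p = 0.147). MRPL55, a mitochondria-specific protein, differed by 0.51 (limma adjusted p = 0.300), and MRPL2, whose bacterial relative lies near the peptidyl transferase centre, by 0.48 (limma adjusted p = 0.326).

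A few large subunit members went the other way with HOXD9. MRPL50, a mitochondria-specific protein, read 7.37, 6.22, 7.43 and 7.10 in the HOXD9 mix and in clones a to c, against 7.46, 7.54 and 7.49 in the HA vectors. Clone a made most of this difference of -0.46, while the mix and clone b lay just under the vectors (limma adjusted p = 0.225). MRPL19 read 8.28, 7.39, 8.25 and 8.08 in the HOXD9 lines, against 8.50, 8.42 and 8.41 in the HA vectors, and clone a was again the lowest (difference -0.44, limma adjusted p = 0.204). All 3 probe sets of MRPL19 were lower on average in the HOXD9 lines. MRPL32, whose precursor is processed by the m-AAA protease before it enters the ribosome, read 10.27, 10.20, 10.43 and 9.78 in the HOXD9 lines, against 10.46, 10.50 and 10.51 in the HA vectors. Here clone c was the lowest and clone b almost reached the vectors (difference -0.32, limma adjusted p = 0.227). MRPL1, whose bacterial relative forms the stalk at which deacylated tRNA leaves, differed by -0.35 (limma adjusted p = 0.442), with clone c at 7.18 and the other lines at 8.27 to 8.53. MRPL42 differed by -0.31 (limma adjusted p = 0.236) and was the lowest member relative to the vectors in the HOXD9 mix.

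With HOXD13 the median difference of the family was close to 0, and 5 members passed the test in limma, with 2 above and 3 below their V5 vector level. They are 6.67% of the members, against 10.6% of all genes. The higher ones are 2.67% against 2.88% of all genes, and the lower ones 4% against 7.76%. The median difference over the members was 0.07, against -0.03 over all genes, and 43 members, or 57.3%, were above 0, against 45.8% of all genes. This median joins unlike lines, since the median member stood at 0.12, 0.20 and 0.28 in the mix and clones a and b and at -0.31 in clone c. Without clone c it was 0.19, and 38 members passed in limma, 29 higher and 9 lower, beside 35.8% of all genes. At an unadjusted p under 0.05 there were 21 members, or 28% against 27% of all genes. Of these, 11 were higher (14.7% against 10.2%) and 10 lower (13.3% against 16.8%).

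MRPS17, a small subunit protein that binds rRNA early in assembly in bacteria, read 10.43, 10.76, 10.89 and 9.30 in the HOXD13 mix and in clones a to c, against 9.34, 9.35 and 9.33 in the V5 vectors. The mix and clones a and b stood more than 1 unit above the vectors, while clone c was just under them. The rise was 1.01 (SE 0.28), or 2.01-fold (limma adjusted p = 0.0355). MRPL16, whose bacterial relative helps to hold the tRNA acceptor ends near the peptidyl transferase centre, read 10.31, 10.48, 10.53 and 9.52 in the HOXD13 lines, against 9.53, 9.47 and 9.52 in the V5 vectors. The pattern was that of MRPS17, with clone c inside the vector range (rise 0.70, SE 0.21, 1.63-fold, limma adjusted p = 0.0457).

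MRPS9, whose bacterial relative reaches with its tail to the peptidyl-tRNA of the small subunit, read 8.66, 8.41, 8.54 and 9.14 in the HOXD13 lines, against 9.42, 9.41 and 9.46 in the V5 vectors. All 4 lines were below all vectors, clone c least. The fall was 0.74 on the log2 scale (SE 0.16), a 1.67-fold decrease, with the lowest adjusted p of the members in this comparison (limma, 0.014). MRPL39, a mitochondria-specific protein, read 10.06, 9.79, 9.91 and 10.37 in the HOXD13 lines, against 10.51, 10.51 and 10.50 in the V5 vectors. It fell by 0.47 on the log2 scale (SE 0.12, 1.39-fold, limma adjusted p = 0.0284), again with clone c closest to the vectors. MRPL22, whose bacterial relative also lines the exit tunnel, read 10.22, 10.14, 10.22 and 10.18 in the HOXD13 lines, against 10.62, 10.59 and 10.62 in the V5 vectors. It was the only one of the 5 on which clone c lay among its sister lines, and it fell by 0.42 on the log2 scale (SE 0.13, 1.34-fold, limma adjusted p = 0.0481). Of 23 other settings of the analysis, the call held in 20 for MRPS9, 16 for MRPL39, 12 for MRPS17 and 11 each for MRPL16 and MRPL22. Here and below, these settings share arrays and are not independent. Some drop only arrays of the HA set, and some call 25.1% to 85.6% of all genes with HOXD13. In each of the 3 fits that left out 1 V5 vector array, 0 members were called in limma, beside 2.93% to 3.48% of all genes.

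The promoter windows of these 5 members are shown because they carry the calls, from 250 bases before to 50 after the gene start in RefSeq on GRCh38.p14, written 5' to 3' on the strand of the gene. Capitals mark matches on either strand to 5 short motifs: CCGGAAG (an ETS core, the family of GABPA), an NRF1 core (GCGC, then A, any base and GCGC), AAGATGGCG (a YY1 core), CACGTG (an E-box, which MYC binds) and CCAATAAA (a core preferred by HOX13 proteins). Overlaps between motifs were allowed. The windows lie at chr7:55951627-55951926 on the plus strand for MRPS17, chr11:59810729-59811028 on the minus strand for MRPL16, chr2:105037819-105038118 on the plus strand for MRPS9, chr21:25607432-25607731 on the minus strand for MRPL39 and chr5:154940823-154941122 on the plus strand for MRPL22.
MRPS17: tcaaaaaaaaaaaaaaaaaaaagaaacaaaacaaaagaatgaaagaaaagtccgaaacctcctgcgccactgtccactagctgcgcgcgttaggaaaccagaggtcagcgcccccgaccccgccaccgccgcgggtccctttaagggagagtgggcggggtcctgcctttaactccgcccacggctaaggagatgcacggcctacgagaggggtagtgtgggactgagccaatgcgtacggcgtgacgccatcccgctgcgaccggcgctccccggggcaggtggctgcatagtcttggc
MRPL16: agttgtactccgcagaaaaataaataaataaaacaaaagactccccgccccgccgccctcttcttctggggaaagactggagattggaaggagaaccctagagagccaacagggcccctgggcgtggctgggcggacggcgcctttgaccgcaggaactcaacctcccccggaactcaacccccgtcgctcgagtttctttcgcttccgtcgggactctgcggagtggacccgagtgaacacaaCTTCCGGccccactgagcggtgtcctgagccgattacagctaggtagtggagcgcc
MRPS9: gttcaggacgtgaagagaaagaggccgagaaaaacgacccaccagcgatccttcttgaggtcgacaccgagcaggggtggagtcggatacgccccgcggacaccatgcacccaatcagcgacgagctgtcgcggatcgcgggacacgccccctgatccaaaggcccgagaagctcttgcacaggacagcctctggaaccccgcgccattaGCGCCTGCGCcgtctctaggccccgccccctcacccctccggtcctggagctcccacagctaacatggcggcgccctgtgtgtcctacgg
MRPL39: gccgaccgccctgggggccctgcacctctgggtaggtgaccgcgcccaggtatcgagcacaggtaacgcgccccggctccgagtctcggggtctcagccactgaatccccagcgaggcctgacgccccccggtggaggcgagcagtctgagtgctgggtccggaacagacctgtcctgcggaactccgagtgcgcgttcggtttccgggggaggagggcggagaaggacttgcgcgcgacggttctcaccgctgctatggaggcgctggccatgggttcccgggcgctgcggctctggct
MRPL22: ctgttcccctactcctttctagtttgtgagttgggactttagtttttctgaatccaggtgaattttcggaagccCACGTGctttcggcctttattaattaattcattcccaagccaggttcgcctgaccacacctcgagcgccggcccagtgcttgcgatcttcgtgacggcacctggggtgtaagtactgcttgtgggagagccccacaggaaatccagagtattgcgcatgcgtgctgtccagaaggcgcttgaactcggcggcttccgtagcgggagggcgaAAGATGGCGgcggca
The windows of MRPS17 and MRPL39 hold no match. That of MRPL16 holds an ETS core, that of MRPS9 an NRF1 core, and that of MRPL22 an E-box and a YY1 core next to the end of the window.

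Promoter windows were found for 67 of the 75 members, and the family was set beside all 35116 windows of the table and beside the 8617 of them that belong to tested genes. The ETS core was in 28 member windows, or 41.8%, against 10.3% of all windows and 20.7% of those of tested genes. The YY1 core was in 12, or 17.9%, against 1.75% and 4.38%, and these were the windows of MRPL22, MRPL32, MRPL36, MRPL38, MRPL42, MRPL46, MRPL50, MRPL52, MRPS10, MRPS18A, MRPS18B and MRPS30. The NRF1 core was in 8, or 11.9%, against 5.78% and 13%, and the E-box in 6, or 8.96%, against 7.26% and 10.8%. The HOX13 core was in 0 member windows, against 0.934% and 0.754%. A match describes the letters of a window and is not a binding site, and a window without one says nothing of the factor.

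**Figure D2:**
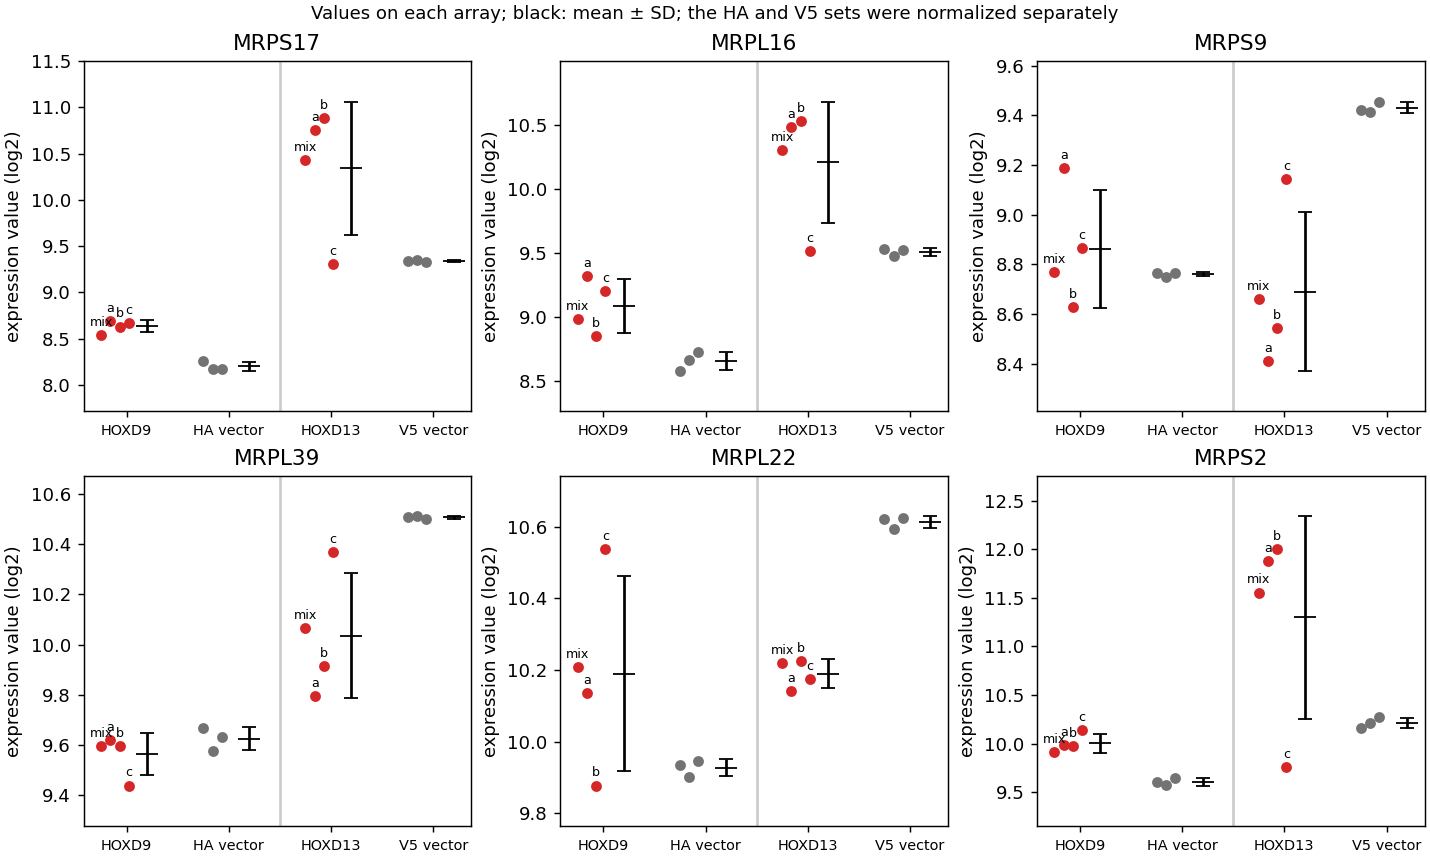
Log2 values of the 5 members called in the HOXD13 comparison and of MRPS2, on each array, with the mean and SD of each group in black (n = 4 lines, n = 3 vectors) and a vertical axis of its own for each gene. MRPS17, MRPL16 and MRPS2 are high in the HOXD13 mix and clones a and b and not in clone c, where MRPS17 reads 9.30, MRPL16 9.52 and MRPS2 9.76.

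The HOXD13 lines were split by clone c, and this split touched more of the family than the 5 calls. The medians over all genes were -0.02, -0.04, -0.04 and -0.13 in the mix and clones a to c, beside the members' medians given above. In clone c 60 members lay below every V5 vector array, or 80%, against 57% of all genes. The mix had 25 members there, or 33.3% against 46.2% of all genes, clone a 26, or 34.7% against 47%, and clone b 21, or 28% against 49.2%. Above every V5 vector array lay 43 members in the mix (57.3% against 42.2%), 44 in clone a (58.7% against 41.7%), 49 in clone b (65.3% against 42.9%) and 10 in clone c (13.3% against 33.5%). The lowest member of clone c was MRPL38, a large subunit protein, at -0.87, and the highest was MRPL13 at 0.62. Both subunits were low in clone c, with medians of -0.32 for the large and -0.29 for the small.

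For 35 of the 75 members, or 46.7%, the HOXD13 mix and clones a and b all lay above every V5 vector and clone c lay below every one, a pattern held by 20.4% of all genes. They were 22 of the 50 large subunit members and 13 of the 25 small subunit members. The large subunit ones were MRPL2, MRPL4, MRPL10, MRPL12, MRPL14, MRPL15, MRPL17, MRPL20, MRPL34, MRPL35, MRPL36, MRPL37, MRPL40, MRPL41, MRPL43, MRPL44, MRPL46, MRPL54, MRPL55, MRPL57, MRPS18A and MRPS30. The small subunit ones were MRPS2, MRPS6, MRPS7, MRPS11, MRPS12, MRPS14, MRPS15, MRPS17, MRPS23, MRPS26, MRPS28, MRPS33 and MRPS34. MRPL2 is listed by its brightest probe set, with a HOXD13 difference of 0.61, while its other probe set above the filter differed by -0.39. The reverse pattern, with the mix and clones a and b below and clone c above, was held by 5 members, or 6.67% against 12.5% of all genes, namely MRPL1, MRPL13, MRPL42, MRPL47 and MRPS18C. Whatever clone c did, the mix and clones a and b were all above for 41 members, or 54.7% against 32.1%, and all below for 20, or 26.7% against 36%. Of the 35, 27 also had all 4 HOXD9 lines above every HA vector, as had 43 of all 75 members. The share of all genes with both patterns is not given here.

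MRPS2, a small subunit protein whose bacterial relative joins late in assembly, showed the widest split. It read 11.55, 11.88, 12.00 and 9.76 in the HOXD13 mix and in clones a to c, against 10.16, 10.21 and 10.27 in the V5 vectors. The mix and clones a and b stood far above the vectors and clone c below all of them. The mean difference of 1.09 (SE 0.39) did not pass in limma (adjusted p = 0.0938). Relative to the vector mean it was the member with the largest positive difference in the HOXD13 mix (1.34), clone a (1.66) and clone b (1.79), while MRPS9 had the largest negative one in each of them. MRPS12, relative of the bacterial protein of the decoding centre in which streptomycin resistance arises, read 11.88, 12.08, 12.21 and 10.17 in the HOXD13 lines, against 10.67, 10.61 and 10.62 in the V5 vectors. Clone c was again the low line (difference 0.95, SE 0.36, limma adjusted p = 0.107). MRPL41 and MRPL57, both mitochondria-specific, had the same form. MRPL41 read 12.45, 12.75, 12.95 and 11.07 in the HOXD13 lines, against 11.54, 11.51 and 11.54 in the V5 vectors (difference 0.77, limma adjusted p = 0.147). MRPL57 read 12.51, 12.66, 12.74 and 11.24 in the HOXD13 lines, against 11.54, 11.55 and 11.59 in the V5 vectors (difference 0.72, limma adjusted p = 0.11). In both, the mix and clones a and b were above and clone c below all vectors. MRPL47, a large subunit member with the reverse pattern, differed by -0.44 (limma adjusted p = 0.177).

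**Figure D3:**
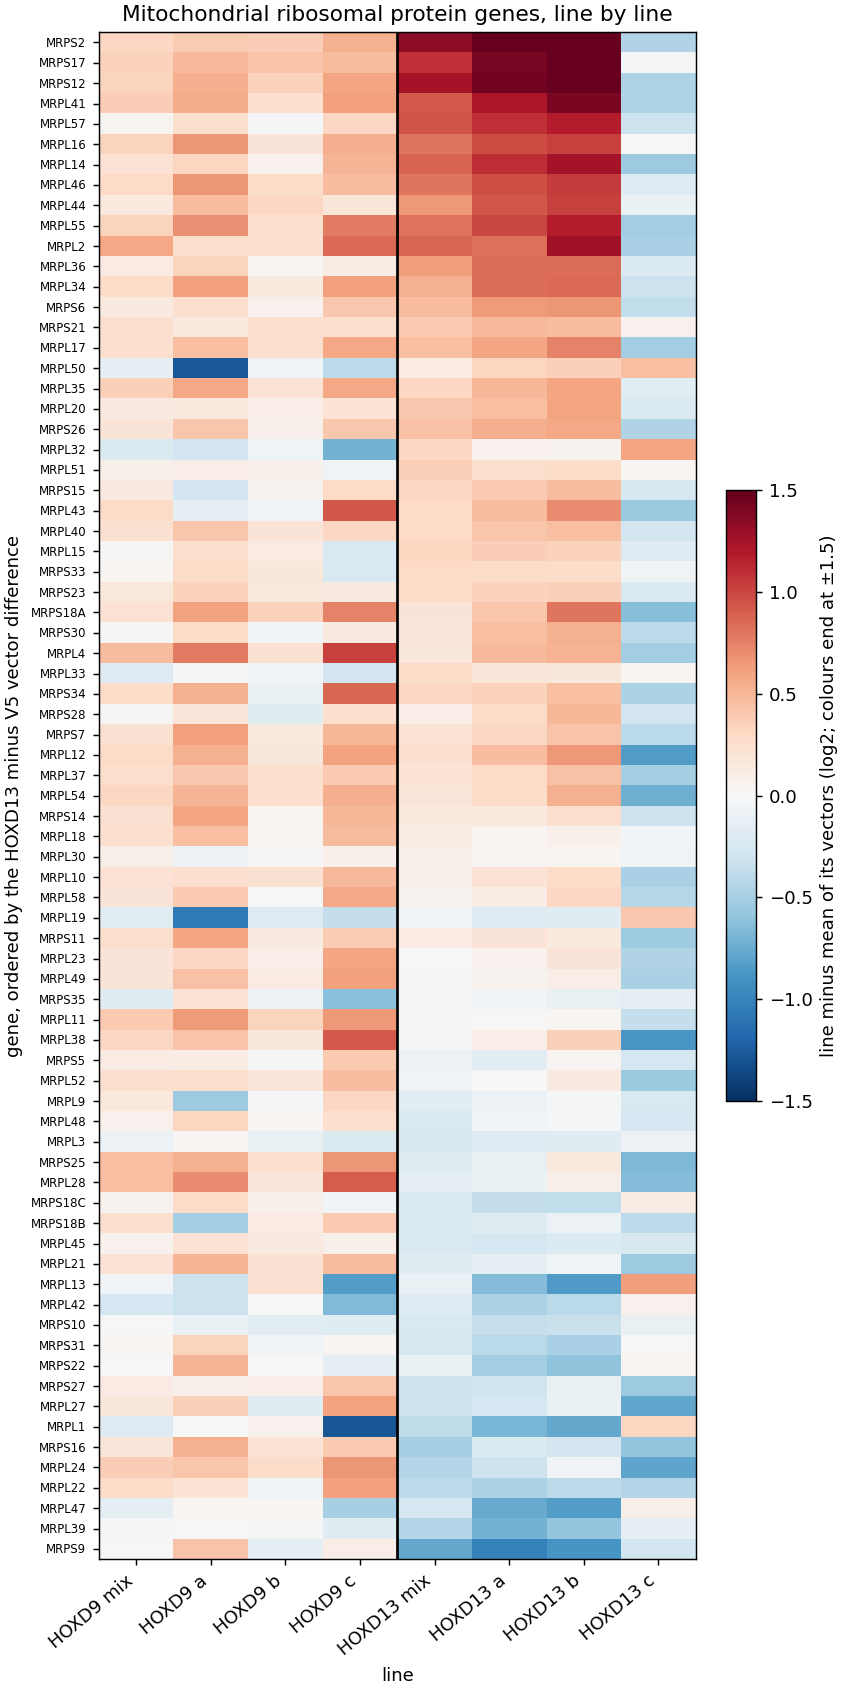
Log2 difference of each of the 75 members (rows, ordered by the HOXD13 minus V5 vector difference) from the mean of the vector arrays of its own tag in the 4 HOXD9 lines and the 4 HOXD13 lines (columns), in colour, red above and blue below, with colours ending at 1.5 on either side. The HOXD13 mix, a and b share most colours, while 60 members of HOXD13 clone c are below every V5 vector array.

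Other readings set clone c apart too. The ACTB 3' to 5' difference was 2.13, 2.01, 1.82 and 2.80 in the HOXD13 mix and in clones a to c, against 2.19 to 2.26 in the V5 vectors. A less bright HOXD13 probe set read 10.15, 10.23, 10.42 and 8.87 in the HOXD13 lines, against 8.93 to 8.95 in the V5 vectors, so clone c was not above the vectors there although it was on the brightest probe set. The dimmest of the 3 HOXD13 probe sets read 8.39, 8.39, 8.41 and 8.26 in the HOXD13 lines, against 3.05 to 3.45 in the V5 vectors, and there clone c was close to its sister lines. MYC, a transcription factor that drives genes of ribosome biogenesis and is a member of the list of regulators, differed from the V5 vector mean by 2.04, 2.38 and 2.39 in the HOXD13 mix and clones a and b and by -0.19 in clone c. Genes are also short in this family, with a median genomic length of 8667 bases against 32870 over all genes tested. In clone c the median of the shortest genes, those up to 18363 bases, was -0.38 for the 56 members and -0.27 for all genes of that length. In clone b it was 0.39 for these members and 0.14 for all such genes. In the HOXD9 comparison it was 0.30 for these members and 0.22 for all such genes, and in the HOXD13 comparison 0.19 and 0.03. For the 12 members of middle length, up to 57178 bases, the medians were 0.06 with HOXD9, against 0.07 for all such genes, and -0.21 with HOXD13, against -0.06. For the 7 longest members they were 0.17 with HOXD9, against -0.07, and -0.15 with HOXD13, against -0.07. With the ACTB difference as a covariate 25 members passed in limma with HOXD13, beside 25.1% of all genes. The part of gene length and of MYC in these shifts was not tested.

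Some members lay on 1 side of the vectors in all HOXD13 lines. All 4 lay above every V5 vector for MRPL32, MRPL33, MRPL50 and MRPS21, which are 5.33% of members against 8.59% of all genes. They lay below for 13 members, or 17.3% against 20.3% (17 on 1 side in all, 22.7% against 28.9%), namely MRPL3, MRPL21, MRPL22, MRPL24, MRPL27, MRPL39, MRPL45, MRPS9, MRPS10, MRPS16, MRPS18B, MRPS27 and MRPS35. MRPL50 read 8.49, 8.69, 8.72 and 8.82 in the HOXD13 lines, against 8.27, 8.43 and 8.41 in the V5 vectors (difference 0.31, limma adjusted p = 0.407). MRPL32 read 11.56, 11.31, 11.30 and 11.84 in the HOXD13 lines, against 11.28, 11.24 and 11.21 in the V5 vectors, with clone c highest (difference 0.26). Both were among the 3 members below every HA vector in all HOXD9 lines, but for MRPL50 the difference of the effects was -0.78 with a limma adjusted p of 0.141. Of the remaining members, MRPL16 and MRPL51 were above in the mix and clones a and b with clone c within the vector range, MRPS22 and MRPS31 were below in that way, and for 14 the mix and clones a and b did not lie on 1 side. Shares of all genes for these remaining patterns are not given here.

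**Figure D4:**
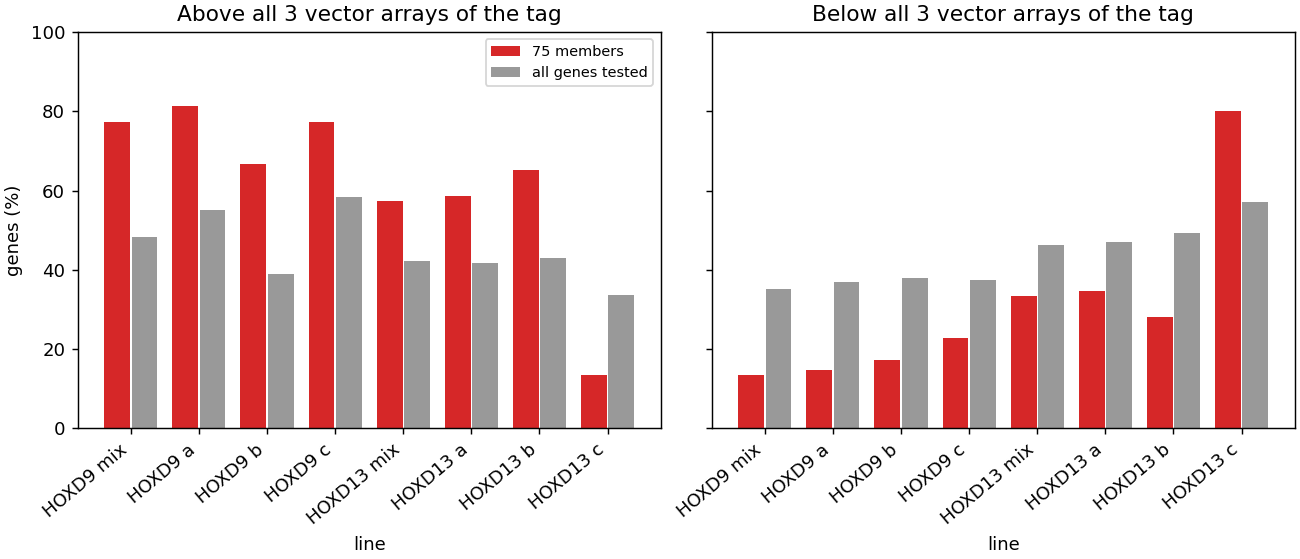
Share of the members and of all genes tested that lie above or below every vector array of the own tag, in percent, by line. The members exceed all genes above the vectors in every HOXD9 line and in the HOXD13 mix, a and b, and in HOXD13 clone c they are at 13.3% above and 80% below.

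The effects of the 2 factors were set against each other in 1 contrast, the HOXD9 effect minus the HOXD13 effect, each against its own vectors. Each factor has its own tag and its own normalized set, and this contrast cannot tell these apart. It was called in limma for 6 members, or 8%, against 9.63% of all genes, and all 6 were positive, as were 8.12% of all genes, while 0 were negative, against 1.52%. The contrast was above 0 for 46 members, or 61.3% against 53.3%. At an unadjusted p under 0.05 there were 13 positive members, or 17.3% against 18.7%, and 2 negative ones, or 2.67% against 7.78%. MRPS9 had the largest difference of effects at 0.84 (limma adjusted p = 0.0382). In the HOXD9 lines it read 8.77, 9.19, 8.63 and 8.87, against 8.77, 8.75 and 8.77 in the HA vectors, so these lines lay on both sides of their vectors. MRPL24, a large subunit protein whose bacterial relative starts large subunit assembly, read 9.16, 9.21, 9.07 and 9.45 in the HOXD9 lines, against 8.66, 8.85 and 8.87 in the HA vectors. It read 8.98, 9.11, 9.36 and 8.63 in the HOXD13 lines, against 9.45, 9.39 and 9.42 in the V5 vectors. The lines lay above their vectors with HOXD9 and below them with HOXD13, and the effects differed by 0.83 (limma adjusted p = 0.0297). MRPS16, which sits in the body of the small subunit, had the same form, with 9.32, 9.67, 9.35 and 9.53 in the HOXD9 lines, against 9.14, 9.09 and 9.19 in the HA vectors. It read 9.36, 9.64, 9.59 and 9.28 in the HOXD13 lines, against 9.86, 9.79 and 9.96 in the V5 vectors, and the effects differed by 0.73 (limma adjusted p = 0.0196). Of 23 other settings, the call held in 18 for MRPS16, 14 each for MRPL22 and MRPL24 and 10 each for MRPS9, MRPL11 and MRPL21.

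The other calls of this contrast were MRPL22 at 0.69 (limma adjusted p = 0.0303), MRPL11 at 0.59 (0.0439) and MRPL21 at 0.59 (0.0496). MRPL21 read 10.69, 10.98, 10.71 and 10.95 in the HOXD9 lines, against 10.45, 10.53 and 10.45 in the HA vectors, and 10.94, 10.98, 11.06 and 10.59 in the HOXD13 lines, against 11.12, 11.10 and 11.16 in the V5 vectors. MRPL11 read 9.79, 9.83, 9.85 and 9.46 in the HOXD13 lines, against 9.79, 9.76 and 9.90 in the V5 vectors, so only clone c left the vector range. All 6 belong to the 45 members with a bacterial relative. Over these 45 the median of the contrast was 0.08, and over the 30 mitochondria-specific members it was 0.22. When 1 array was left out, between 0 and 22 members passed in this contrast. The count was 0 without HA vector 1 or 2 or V5 vector 1 or 3, beside 3.71% to 4.22% of all genes. It was 22 without HOXD13 clone c, beside 22.2%. Members with all HOXD9 lines above their vectors and all HOXD13 lines below theirs were MRPL21, MRPL24, MRPL45, MRPS16 and MRPS27. The share of all genes with this pattern is not given here. MRPL20-AS1, the noncoding member, differed by 0.34 with HOXD9 (limma adjusted p = 0.173) and by -0.26 with HOXD13 (limma adjusted p = 0.233).

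Genes that work with the mitochondrial ribosome were described from 6 lists, with 90 tested genes in all. With HOXD9, 0 were called in limma, beside 0.00966% of all genes, and 22 had an unadjusted p under 0.05, beside 23.5% of all genes. With HOXD13, 9 of the 90 were called, or 10%, beside 10.6% of all genes, and the HOXD9 and HOXD13 effects differed for 8, or 8.89%, beside 9.63%. The medians below, HOXD9 first, stand beside 0.08 and -0.03 over all genes. The 5 tested proteins that join the ribosome under other names had medians of 0.18 with HOXD9 and -0.01 with HOXD13. Of them OXA1L, which inserts new proteins into the inner membrane, fell by 0.34 with HOXD13 (SE 0.10, limma adjusted p = 0.0426), and its HOXD9 effect was the higher by 0.52 (limma adjusted p = 0.0325). Of 21 assembly and rRNA modification factors (medians 0.22 and 0.04), RPUSD3, a protein of the pseudouridine synthase family, fell by 0.69 with HOXD13 (limma adjusted p = 0.0112), and for it, YBEY and METTL17 the effects of HOXD9 and HOXD13 differed by 1.20, 0.86 and 0.55 (limma adjusted p = 0.00516, 0.00647 and 0.035). Of 12 translation factors (medians 0.02 and 0.03), MTFMT, which formylates the initiator methionyl-tRNA, fell by 0.58 (limma adjusted p = 0.00489), and this call held in 23 of 23 other settings. Its effects differed by 0.60 (limma adjusted p = 0.0223). Of 18 mitochondrial aminoacyl-tRNA synthetases (medians 0.19 and -0.14), CARS2 fell by 0.47 (limma adjusted p = 0.0293) and HARS2 by 0.70 (limma adjusted p = 0.0412), and the effects on CARS2 differed by 0.78 (limma adjusted p = 0.016). Of 19 transcription and RNA processing genes (medians -0.06 and 0.10), FASTKD3 rose by 0.69 (limma adjusted p = 0.0192) and FASTKD5 by 0.78 (limma adjusted p = 0.0353); both act on mitochondrial RNA. For FASTKD3 the difference of effects was negative, at -0.85 (limma adjusted p = 0.0367). Of 23 other settings, these HOXD13 calls held in 19 for RPUSD3, 17 each for CARS2 and FASTKD3, 12 each for OXA1L and FASTKD5 and 11 for HARS2.

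The list of regulators held 15 tested genes (medians 0.14 and -0.02). MYC rose by 1.65 with HOXD13 (limma adjusted p = 0.0397), with clone c apart as given above, and the call held in 11 of 23 other settings. DDIT3, a transcription factor of the stress response to unfolded proteins, fell by 0.58 (limma adjusted p = 0.00887), a call that held in 22 of them, and its effects differed by 0.84 (limma adjusted p = 0.00856), which held in 22 of 23. NRF1, a factor that binds promoters of many nuclear genes for mitochondrial proteins, differed by 0.14 with HOXD9 (limma adjusted p = 0.576) and by 0.20 with HOXD13 (limma adjusted p = 0.47). GABPA, an ETS factor that acts at many of the same promoters, differed by -0.85 with HOXD9 (limma adjusted p = 0.191), with clones a and c at -1.89 and -1.29 and the mix and clone b at -0.24 and 0.01.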

How the data were processed

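The values the authors deposited for the 14 arrays are log2 values made with GCRMA for each probe set; the method is named in the submitters' processing notes, while its version is not given in the sources used here. GCRMA corrects background by probe sequence, sets arrays to 1 distribution and summarises probe sets, so undetected transcripts sit near a floor. Sorted values differed by at most 0.00102 within the HA set and 0.00195 within the V5 set, and the 75th percentiles were 6.27 and 7.02: the sets were normalized separately. Precision is limited by the number of arrays, which have no read depth.

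Probe sets with a value of at least 5 on at least 3 arrays were kept, and each gene was read by its brightest single-symbol probe set. Symbols came from the platform annotation, updated through RefSeq, which matched 99.9% of them. Group means were fitted over the 14 arrays with limma 3.58.1 (lmFit, eBayes, 10 residual degrees of freedom, prior 3.02) in R 4.3.3, two-sided, with Benjamini-Hochberg adjustment over 10349 genes and a threshold of 0.05. The code was tested on simulated data, in which unchanged genes were a larger share of the calls than the threshold aims at and most of the smallest changes were missed, in the HOXD9 and the HOXD13 comparison alike. The values were loaded with data.table, version 1.17.8, and figures drawn with matplotlib 3.10.9 in Python 3.11.15.

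The members and lists were chosen with earlier results of these data known. Members named are all those called in a comparison, the 5 with the largest rise and the 5 with the largest fall in each comparison with vectors, and the highest and lowest of each line; from each related list the called genes are named. GABPA, NRF1 and members given only by pattern were named after their values were seen. The symbols MRPL53, MRPS24 and MRPS31P5 occur only on probe sets of several genes and were left out.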

Additional observations from a re-analysis of the deposited data

Results flagged for a closer look

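In 4 cases 1 line stood apart from its 3 sister lines by more than Dixon's critical value for groups of 4, out of 50 groups examined, 25 members in the HOXD9 and HOXD13 lines. Chance alone passes this value in about 1 of 20 independent groups. That rate does not apply here, because the 25 members are those named for their values on these same arrays. In HOXD13 clone c, MRPL11 read 9.46 while the other HOXD13 lines read 9.79 to 9.85 (gap over range 0.833), MRPS12 read 10.17 while they read 11.88 to 12.21 (0.839), and MRPL57 read 11.24 while they read 12.51 to 12.74 (0.849). In HOXD9 clone c, MRPL39 read 9.44 while the other HOXD9 lines read 9.60 to 9.62 (0.862).

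For 6 members the HOXD9 effect and the HOXD13 effect differed in limma. The HOXD9 effect was the higher by 0.84 for MRPS9, 0.83 for MRPL24, 0.73 for MRPS16, 0.69 for MRPL22, 0.59 for MRPL11 and 0.59 for MRPL21 on the log2 scale. The limma adjusted p-values were 0.0382, 0.0297, 0.0196, 0.0303, 0.0439 and 0.0496 in that order.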

How the results depend on the processing

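No paired analysis was possible because HOX lines and their own vectors share no replicate numbers. Vector numbers and line names recur across the tag sets but share only a label: in 0 of 7 same-named pairs was the own name the best match, and deviations from group means correlated at -0.619 to 0.0423. With them as a replicate block, a choice made after seeing the data, the difference of effects gave 0 calls in limma (11 at an unadjusted p under 0.05), beside 1.9% and 19% of all genes. When 1 array was left out, members called ranged from 0 to 20 with HOXD9 (3 without HOXD9 clone b, beside 8.5% of all genes). They ranged from 0 to 38 with HOXD13 and from 0 to 22 for the difference of effects. Each count was highest without HOXD13 clone c, beside 10.6%, 35.8% and 22.2% of all genes in that order. With HOXD13 the count was 0 without any 1 V5 vector, 1 without the HOXD13 mix, clone a or clone b, 2 without any 1 HA vector, 3 without the HOXD9 mix, 8 without HOXD9 clone a and 10 without HOXD9 clone c. Of all genes, 2.93% to 3.48%, 4.65% to 5.62%, 7.25% to 7.36%, 8.85%, 12.9% and 17.4% were called in the same order. For the difference it was 0 without HA vector 1 or 2 or V5 vector 1 or 3, 1 without HA vector 3, V5 vector 2 or the HOXD13 mix, 2 without HOXD13 clone a and 3 without HOXD9 clone a. Beside these counts, 3.71% to 4.22%, 4.06% to 5.83%, 6.27% and 9.11% of all genes were called. The median over the members ranged from 0.20 to 0.32 with HOXD9 and from 0.0026 to 0.19 with HOXD13. Members with every HOX line above its vectors ranged from 43 to 51 with HOXD9 and from 4 to 41 with HOXD13, and below from 3 to 5 and from 13 to 20. Leaving out an array can only keep or raise such a count, so the lower ends say nothing of its stability. The HOXD13 count above was 41 without clone c, beside 32.1% of all genes.

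Fitting each tag set alone gave 2 calls with HOXD13, beside 8.6% of all genes. For the difference of effects, no filter on low values gave 3 calls, beside 4.24% of all genes. Centring each array on its median also gave 3, beside 8.36%. The ACTB 3' to 5' difference as a covariate gave 1, 25 and 17 calls in the HOXD9, HOXD13 and difference contrasts. There 0.483%, 25.1% and 19.6% of all genes were called. It gave a HOXD9 median of 0.12 over the members, against 0.04 over all genes. Array weights gave 64, 67 and 65 calls and gave 0.22 for the difference of effects of MRPL42, which was -0.05 in the fit without weights; their estimation stopped before it converged, weights ran from 0.0183 to 765, and 75.7%, 85.6% and 80.9% of all genes were called. Leaving out HOXD13 clone c and HOXD9 clones a and c, a choice made after seeing the data, gave 6, 58 and 42 calls beside 8.23%, 64.8% and 45.2% of all genes. In counts also added after seeing the data, averaging the probe sets of a gene gave 5 members below with HOXD9, and centring gave 7 above with HOXD13. The cause of these changes was not tested.

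Of 26 members with more than 1 probe set, the probe sets had 1 sign in 20 with HOXD9 and in 21 with HOXD13, and none had calls of both signs. The spread of the HOX lines is wider than that of the vectors, which 1 pooled estimate of the spread does not follow.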
